A study of Homo sapiens with 4 samples.

Results

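Star-PAP HITS-CLIP from HEK293 cells was compared between control cells and cells treated with an siRNA against Star-PAP (siStar-PAP), gene by gene. HEK293 is an established human embryonic kidney line, and HITS-CLIP crosslinks proteins to RNA with UV light, pulls down 1 protein with an antibody and sequences the RNA fragments that come with it. All 19229 protein-coding genes on chromosomes 1 to 22 were taken from the GENCODE annotation of hg19, of 20163 protein-coding genes on chromosomes 1 to 22, X and Y. Exons of protein-coding transcripts were annotated for 18893 of the 19229. The 2 libraries compared are 2 of the 4 samples of the series, which also holds a pull-down after RBM10 siRNA (siRBM10) and an IgG pull-down. The IgG sample entered only through the peak calling of the authors. Cells of every sample had 400 mJ of UV per cm2, and the labels describe siRNA transfection with Oligofectamine and harvest 48 h later, while the methods of the study name calcium phosphate. The label of the control names no knockdown and does not say whether these cells had a non-targeting siRNA. Both libraries were made with the same antibody against Star-PAP, so siStar-PAP is a pull-down of what Star-PAP remained together with whatever else the antibody brought down. Each condition was 1 library, so the differences described have no check against replicates, and p-values were not computed.

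Star-PAP, the product of TUT1, is a nuclear noncanonical poly(A) polymerase. It adds poly(A) tails to a selected set of mRNAs, among them mRNAs of the oxidative stress response, and it also adds uridines to U6 snRNA. RBM10 is an RNA-binding regulator of splicing that associates with Star-PAP.

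The files give 1 position per peak, called a summit here, and no strand, width or tag number. A count of summits is therefore a count of separate called peak positions and not of reads. Reads of a gene and of a gene on the other strand cannot be told apart. The control list held 382958 autosomal summits and the siStar-PAP list held 306360, against 276105 on siRBM10. Counts of a gene were divided by these totals, and a scaled ratio above 1 is a larger share of the siStar-PAP list than of the control list. Ratios carry 95% intervals of 2 Poisson counts, which cover counting error only. The scores of the lists were not used to filter. Their commonest value, a −log10 p of the authors, was 1.33 in the control list, where 63.1% of summits carried it, and 2.92 in the siStar-PAP list, where 22.1% did. The paper filtered peaks at a p-value of 0.05, and a score of 1.33 lies just past that cutoff. Most control summits were thus close to the calling limit, while the commonest siStar-PAP score was further from it. The lists therefore differ in what their commonest peak is, and the part of this difference in the results was not tested.

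TUT1, the gene targeted by the siRNA, held 5 summits in the control list and 8 in the siStar-PAP list. TUT1 lies on chr11:62342517-62359109, on the minus strand, and overlaps 1 other protein-coding gene. The scaled ratio was 2.0 with an interval of 0.577 to 7.77, and relative to genes of like GC content (a scaling described further on) the log2 ratio turned to −1.17, so no direction could be given at these counts. In coding sequence both lists held 4 summits, and siRBM10 held 3 summits in the gene, all of them in introns. The number of summits in TUT1 was thus not lower in the library labelled siStar-PAP, and summits do not measure how much TUT1 mRNA was left. The 29 nt around the coding summits are given below from hg19 on the strand of TUT1, because they are the positions at which the knocked-down gene itself was recorded, with the summit base in capitals.
TUT1 control, chr11:62343121-62343149: caggggacggtgggGaagacagggtagaa
TUT1 control, chr11:62344640-62344668: gtcgggggctgtcaGgtgagaatggatca
TUT1 control, chr11:62346075-62346103: gcccggcgccctgtGgtcaagttctgtca
TUT1 control, chr11:62356612-62356640: ctacgagctgcgagAaaggcccagggact
TUT1 siStar-PAP, chr11:62342642-62342670: cgaatgctcactgtGaccccgctccagga
TUT1 siStar-PAP, chr11:62343470-62343498: aactgctgccgagcAgcagccaattactg
TUT1 siStar-PAP, chr11:62344416-62344444: tctattttcttcagAccagggaccctcct
TUT1 siStar-PAP, chr11:62348937-62348965: cacaaatgataaagCttgtggggctgagg

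The 8 positions were different ones. The control summits had 17 to 19 G or C of 29 bases and the siStar-PAP summits 14 to 18. From a siStar-PAP coding summit, the nearest control summit was 479, 349, 224 and 2862 bp away.

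A larger share of summits lay in genes on siStar-PAP. Protein-coding gene bodies held 170874 control summits (44.6%, Wilson interval 44.5 to 44.8) and 172565 siStar-PAP summits (56.3%, 56.2 to 56.5), although the siStar-PAP list was shorter. Exons held 8091 control summits (2.11%, 2.07 to 2.16) and 18686 siStar-PAP summits (6.10%, 6.02 to 6.18). Gene bodies make up 46.5% of the sequenced autosomal bases and exons 2.97%. Per Mb, the control list had 101.4 summits in exons, 139.4 in introns and 147.6 outside protein-coding genes. The siStar-PAP list had 234.2 in exons, 131.8 in introns and 93.1 outside. Exons were thus below the density outside genes in the control list, at 0.687 times, and above it on siStar-PAP, at 2.52 times. The siRBM10 list, which shares the control with siStar-PAP, gave 2.46 times. Among summits in gene bodies, exons took 4.74% in control and 10.8% on siStar-PAP, against 6.40% of gene-body bases.

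More genes held a summit on siStar-PAP. A gene-body summit was present in 13607 genes in control and in 16559 on siStar-PAP, and an exon summit in 5760 and 10044 genes. The median gene held 2 control and 5 siStar-PAP summits. Control summits were gathered in fewer genes, since 1285 genes held 50% of the gene-body counts in control and 2413 did on siStar-PAP. In the gene body, 12868 genes had summits in both lists, 3691 on siStar-PAP alone, 739 in control alone and 1931 in neither. In exons the numbers were 3520, 6524, 2240 and 6945.

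Genes were compared singly where both lists together gave at least 20 gene-body summits, which 5297 genes did. The scaled ratio with 1 added to each count was at least 2-fold higher on siStar-PAP in 1686 genes (31.8%) and at least 2-fold lower in 745 (14.1%), with a median log2 ratio of 0.18. In exons, with at least 5 summits, 1067 genes were compared. There, 676 (63.4%) were at least 2-fold higher and 15 (1.41%) at least 2-fold lower, with a median of 1.64. These shares are the background for each group below. The higher and lower genes were of different kinds. The 1686 higher genes had a median length of 96.4 kb and a median GC content of 47.9%, and the 745 lower genes 207 kb and 36.9%. Chromosomes 4 and 13 held 18.7% of the lower and 1.60% of the higher genes, beside 7.10% of all compared genes. Chromosomes 17, 19 and 22 held 24.0% of the higher and 0.537% of the lower genes, beside 10.1% of all compared genes. Of the 745 lower genes, 473 had an exon summit in control, 259 had one on siStar-PAP and 98 had more exon summits on siStar-PAP than in control.

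The ratio was highest in short genes and lowest in giant genes. In genes under 10 kb, 1377 control summits stood against 5391 on siStar-PAP, a scaled ratio of 4.89 (4.61 to 5.20). The ratio was 3.14 at 10 to 30 kb, 1.83 at 30 to 100 kb, 1.20 at 100 to 300 kb and 0.798 at 300 to 1000 kb. Over 1000 kb, 14384 control summits stood against 6036, a ratio of 0.525 (0.509 to 0.541). Exons followed the same order at a higher level, from 5.05 (4.63 to 5.52) in the shortest genes to 1.25 (0.907 to 1.72) in the longest, where both lists held 81 exon summits. Of 67 compared genes over 1000 kb, 38 were at least 2-fold lower and 1 at least 2-fold higher. Of 1832 compared genes of 30 to 100 kb, 109 were lower and 879 higher.

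**Figure D1:**
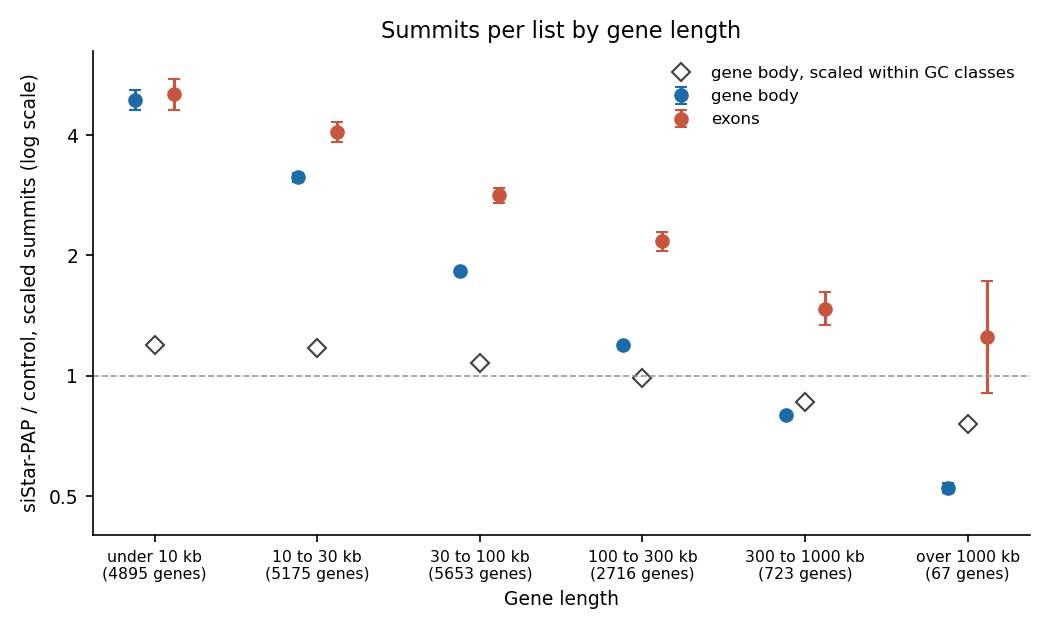
Scaled siStar-PAP over control ratio of summits (log axis) for 6 classes of gene length, in gene bodies (blue) and exons (red) with 95% intervals of counting error, and in gene bodies after scaling within 20 classes of GC content (open diamonds). The gene-body ratio falls from 4.89 under 10 kb to 0.525 over 1000 kb, and from 1.19 to 0.759 after scaling within GC classes.

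The ratio spread more widely over GC content than over length. When all genes were divided into 5 classes of equal number by the GC content of the gene body, with bounds at 39.3, 43.1, 48.2 and 54.1%, the gene-body ratio was 0.551 (0.545 to 0.558) in the lowest class, then 1.07, 2.37 and 5.15, and 8.33 (7.99 to 8.68) in the highest. Of 1838 compared genes in the lowest class, 648 were at least 2-fold lower and 13 higher. Of 629 and 200 compared genes in the top 2 classes, 605 and 197 were higher and 0 were lower. Median gene length fell over the same classes from 66.0 to 8.06 kb, so length and GC content are tied to each other. Within GC classes the ratio mostly still fell with length. In the lowest class it was 0.525 under 10 kb, 0.711 at 10 to 30 kb and 0.406 over 1000 kb, so the shortest genes were an exception there. It was in the middle class 3.52 under 10 kb and 1.80 at 300 to 1000 kb, and in the highest class 9.78 under 10 kb and 7.11 at 100 to 300 kb.

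The same GC gradient was present outside genes. Windows of 10 kb outside protein-coding genes, placed in classes by the same bounds, gave ratios of 0.375, 0.768, 1.78, 3.87 and 5.91. In these windows the control list fell from 181.3 to 53.8 summits per Mb with rising GC content, and the siStar-PAP list rose from 54.4 to 254.6. Sequence at the summits differed in the same direction. The 29 nt around a summit had a mean GC content of 46.4% in control and 54.3% on siStar-PAP in exons, 41.4 and 48.1% in introns, and 40.1 and 46.9% outside genes. A library or peak calling with another GC preference and a change in bound genes cannot be told apart with 1 library a side. In every GC class, genes had a higher ratio than windows outside genes, and exons a higher ratio than gene bodies.

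**Figure D2:**
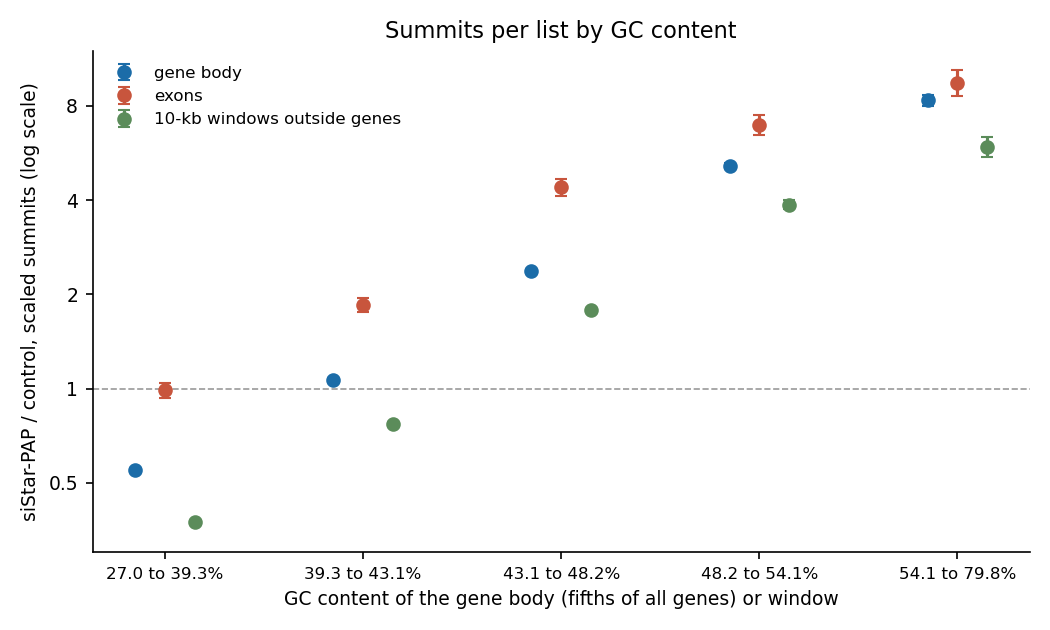
Scaled siStar-PAP over control ratio of summits (log axis) in 5 classes of GC content, for gene bodies (blue), exons (red) and 10-kb windows outside protein-coding genes (green), with 95% intervals of counting error. Ratios rise with GC content in all 3, from 0.551 to 8.33 in gene bodies, from 0.987 to 9.45 in exons and from 0.375 to 5.91 outside genes.

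The preference for exons over introns was larger on siStar-PAP within every GC class of gene. The density of summits in exons relative to introns of the same class was 0.851, 0.850, 0.811, 0.960 and 0.967 in control, from the lowest to the highest class. On siStar-PAP it was 1.57, 1.53, 1.58, 1.35 and 1.13, and on siRBM10 1.77, 1.61, 1.58, 1.43 and 1.28. Exons are richer in GC than the introns beside them, and this was not taken out here.

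To describe genes beside others of like GC content, counts were also scaled within 20 classes of genes by GC content, separately for gene bodies and exons. This setting was chosen after the gradient had been seen, and it sets the ratio of each class to 1. Of the 5297 genes, 457 (8.63%) were then at least 2-fold higher and 369 (6.97%) at least 2-fold lower. In exons, 139 (13%) were higher and 257 (24.1%) lower. By length, the gene-body ratio was 1.19 under 10 kb, 1.17, 1.08, 0.988 and 0.860 in the classes that follow, and 0.759 over 1000 kb. The order by length was kept in gene bodies with a smaller range. It was lost in exons, where the ratios within GC classes were 0.912, 1.01, 1.03, 1.04, 0.895 and 1.11 from the shortest to the longest genes.

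Chromosomes differed as well, with the lowest ratio on the chromosome of lowest GC content and the highest on that of highest GC content, and with exceptions between them. Chromosome 8, at 40.2% GC, was below chromosome 5, at 39.5% GC and a ratio of 1.01, and chromosome 21, at 40.8% GC and a ratio of 1.91, was above chromosome 1, at 41.7% GC and 1.52. The gene-body ratio was 0.571 (0.553 to 0.590) on chromosome 4, 0.611 on chromosome 13, 0.688 on chromosome 8 and 0.798 on chromosome 3, and above 1 on the other 18 autosomes. The highest ratios were 3.07 on chromosome 17, 3.80 on chromosome 22 and 4.49 (4.32 to 4.68) on chromosome 19. On 22 of 22 autosomes the ratio in gene bodies was above that outside genes, and the exon ratio was above 1, from 1.13 (0.936 to 1.36) on chromosome 13 to 8.03 on chromosome 22. On 22 of 22, genes above 48.2% GC had a higher ratio than genes of the lowest GC class. On 21 of 22, genes under 30 kb had a higher ratio than genes of at least 300 kb. When each chromosome was scaled by its own summits, 1424 genes (26.9%) were at least 2-fold higher and 600 (11.3%) lower, and in exons 574 (53.8%) and 45 (4.22%). This order changed within GC classes. Chromosome 13 was lowest at 0.601, followed by chromosome 8 at 0.638 and chromosome 4 at 0.723, and chromosome 6 was highest at 1.42, with chromosomes 17 at 1.28, 21 at 1.25 and 19 at 1.20.

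**Figure D3:**
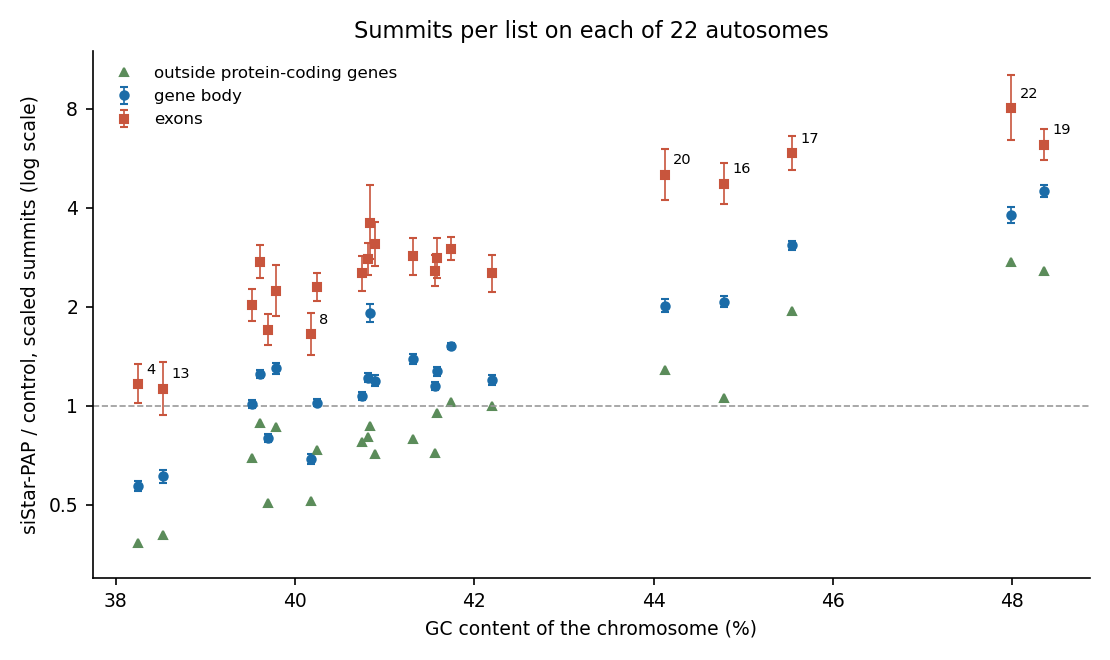
Scaled siStar-PAP over control ratio of summits (log axis) on the 22 autosomes against the GC content of the chromosome, in gene bodies (blue), exons (red) and outside protein-coding genes (green), with 95% intervals of counting error for genes and exons. Chromosomes 4 and 13 lie lowest and 17, 19 and 22 highest, and on each chromosome exons lie above gene bodies and gene bodies above the rest.

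The genes with the highest ratios were mostly of high GC content and held few control summits beside those of siStar-PAP. Among 1761 genes with at least 50 summits in both lists together, TNRC18, whose protein binds chromatin, held 1 control and 51 siStar-PAP summits, a ratio of 63.8 (10.9 to 2567), with 24 on siRBM10. LINGO1, a receptor component that restrains myelination, held 4 and 89, a ratio of 27.8 (10.5 to 104), with 53 on siRBM10. VAV2, an exchange factor for small GTPases, held 7 and 89 (15.9-fold), and GRM4, a glutamate receptor, 6 and 72 (15.0-fold). RXRA, the retinoid X receptor, held 4 and 51 (15.9-fold), and PRRC2B, an RNA-binding protein, 5 and 60 (15.0-fold). SLC22A23 held 5 and 54, PRDM16, a regulator of brown fat identity, 15 and 143 and CASZ1, a zinc finger factor, 5 and 52. In these 9 genes GC content was 47.6 to 62.2%, and 7 of the 9 lay in the highest GC class. Within GC classes all 9 kept a log2 ratio above 0, from 0.32 in CASZ1 to 2.13 in TNRC18. The 9 were picked by the same counts, so this is no separate check. Unscaled siRBM10 counts of the 9 ranged from 24 to 85. The genes were chosen by their control counts, which both depletions share, so nothing is read from siRBM10 beside control here or in the lowest genes.

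The genes with the lowest ratios were long genes of low GC content, several of them neuronal. TTC29, a component of sperm flagella, held 51 control and 4 siStar-PAP summits, a ratio of 0.0980 (0.0257 to 0.267), with 12 on siRBM10. CADM2, a synaptic adhesion protein, held 210 and 24, a ratio of 0.143 (0.0895 to 0.218), with 34 on siRBM10. KLHL1, an actin-binding protein of neurons, held 98 and 11, ZPLD1 75 and 9, and LRFN5, another synaptic adhesion protein, 67 and 8. MARCHF1, a ubiquitin ligase, and RALYL, an RNA-binding protein, both held 143 and 20. CNBD1 held 138 and 20, MSR1, a macrophage scavenger receptor, 67 and 10, and KCNT2, a sodium-activated potassium channel, 73 and 11. All 10 were longer than 200 kb and lay in the lowest GC class, and each held 0 or 1 exon summits in control. Within GC classes all 10 kept a log2 ratio below 0, from −2.13 in TTC29 to −1.0 in KCNT2. These 10 too were picked by the same counts, so this is no separate check. Unscaled siRBM10 counts of the 10 ran from 8 to 34.

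**Figure D4:**
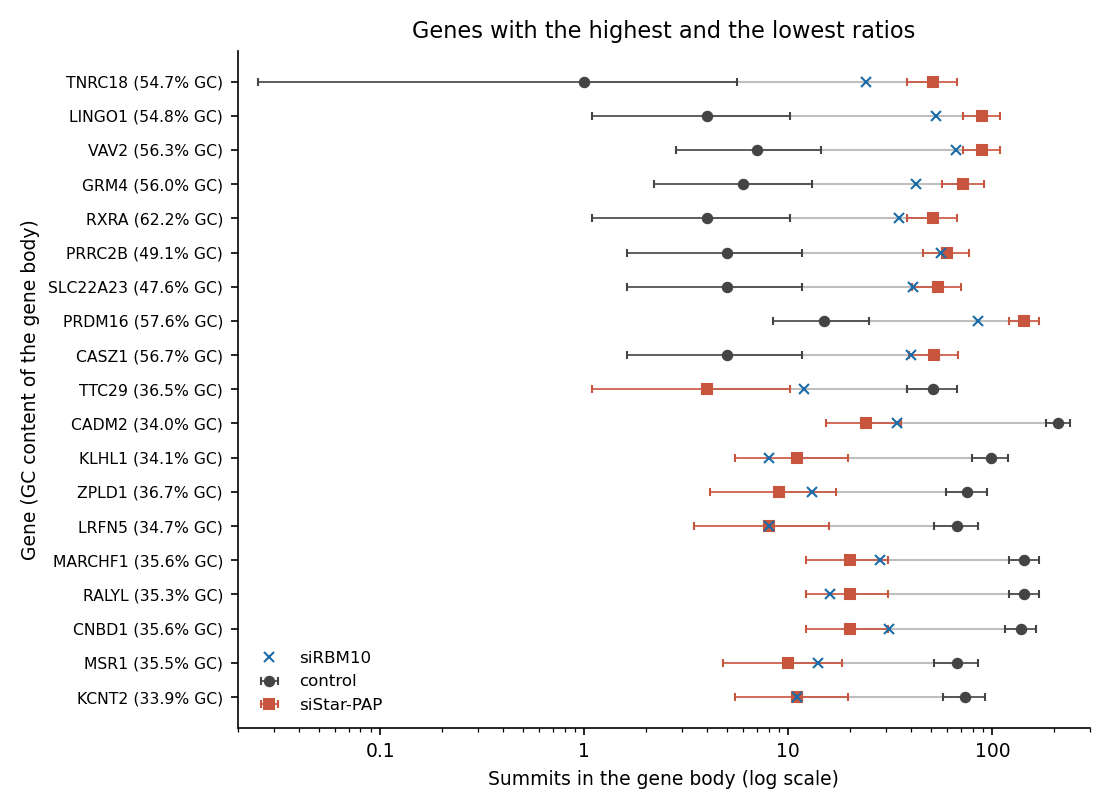
Number of gene-body summits (log axis) in control (black), siStar-PAP (red) and siRBM10 (blue crosses) for 9 of the 10 genes with the highest and the 10 with the lowest siStar-PAP over control ratio among genes with at least 50 summits, with 95% Poisson intervals for the first 2. The upper 9 genes hold 1 to 15 control and 51 to 143 siStar-PAP summits, the lower 10 hold 51 to 210 and 4 to 24.

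Some genes had summits in 1 list alone. The 5 with most summits were chosen after their values were seen. Without a control summit were ITPKB, an inositol trisphosphate kinase, with 33 siStar-PAP summits, PACS2, a sorting protein, with 25, BRD9, a subunit of a SWI/SNF complex, with 24, ANXA11, an annexin, with 21, and PLXNA1, a semaphorin receptor, with 21. Against a floor of 3 control summits these are at least 13.8-fold higher for ITPKB and at least 8.75-fold for ANXA11 and PLXNA1. siRBM10 had 31 summits in ITPKB, 20 in PACS2, 22 in BRD9, 8 in ANXA11 and 17 in PLXNA1. Without a siStar-PAP summit were EXOC1, an exocyst subunit, with 14 control summits, CFAP91, a cilia protein, and CPEB2, which binds cytoplasmic polyadenylation elements of mRNAs, with 13 each, and CARD16 and ZNF670 with 12 each. EXOC1 is at least 3.73-fold lower against the same floor, and siRBM10 had 4 summits there. All summits of CFAP91 and ZNF670 also lay in an overlapping gene. Genes found in control alone had a median GC content of 40.8%, and those found on siStar-PAP alone 53.8%, at similar median lengths of 9.21 and 8.93 kb.

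In exons most of the genes with many summits had more of them on siStar-PAP. Among 61 genes with at least 10 exon summits in both lists together, 42 were at least 2-fold higher, 6 had a log2 ratio below 0 and 0 were 2-fold lower. PEX26, a peroxisome import factor, held 0 control and 12 siStar-PAP exon summits, at least 5.00-fold higher against a floor of 3, although 0 of the 12 lay in its coding sequence. PRRC2B held 0 and 11, MYH9, the heavy chain of nonmuscle myosin, 0 and 10, and ZNF445, a zinc finger protein that protects imprints, 0 and 10. RNF213, a large ubiquitin ligase, held 1 and 17, a ratio of 21.3 (3.33 to 888). RYR1, a calcium release channel of muscle, held 1 and 14, SOGA1 1 and 12, AHNAK, a giant scaffold protein, 2 and 18, ARFGEF3 1 and 11, and MLLT6 1 and 11. siRBM10 exon counts were 5 in PEX26, 10 in PRRC2B, 6 in MYH9, 2 in ZNF445, 18 in RNF213, 10 in RYR1, 12 in SOGA1, 15 in AHNAK, 2 in ARFGEF3 and 12 in MLLT6. Relative to genes of like GC content, the exon log2 ratio stayed above 1 in PEX26 (1.51), PRRC2B (1.32), ZNF445 (1.71) and ARFGEF3 (1.91). It was −0.02 in SOGA1, −0.39 in MLLT6 and between 0 and 1 in the other 4.

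At the other end, the 95% interval of each gene given here held 1. ZBTB20, a zinc finger repressor, held 11 control and 4 siStar-PAP exon summits, a ratio of 0.455 (0.106 to 1.53). FLRT2, an adhesion protein, and NKAIN3 both held 7 and 3, ARIH1, a ubiquitin ligase, and DNAH9, a ciliary dynein, both 6 and 4, and ABI2, a regulator of actin, 8 and 6. TTN, the giant muscle protein titin, had the most exon summits in control, 15, and 13 on siStar-PAP, in 117984 nt of exon. DST, a large cytoskeletal linker, had 9 in both. The exon counts of siRBM10 were 4 in ZBTB20, 0 in FLRT2, 12 in TTN and 13 in DST. On siStar-PAP the most exon summits were those of AHNAK, RNF213, RYR1, TTN and UBR4, a ubiquitin ligase with 2 and 13.

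The coding summit of highest score was looked up in the first 3 genes of the highest end and in ZBTB20, FLRT2 and ARIH1 of the lowest, and is shown for the 4 of these 6 that had one, on the strand of the gene in hg19, since these are single positions behind the exon counts. The summit base is in capitals, and PRRC2B and MYH9 come from the siStar-PAP list and ZBTB20 and ARIH1 from the control list.
PRRC2B, plus strand, chr9:134350914-134350942: agacccatagcgagGgctcagagtatgaa
MYH9, minus strand, chr22:36745233-36745261: taagtatctctatgTggataaaaacttca
ZBTB20, minus strand, chr3:114058028-114058056: gaccctcctggagcGacacgtggccctgc
ARIH1, plus strand, chr15:72873233-72873261: gaaggcagttgatgTcctctgccagtgtc

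Of 29 bases, 15 in PRRC2B, 8 in MYH9, 21 in ZBTB20 and 16 in ARIH1 were G or C. In these windows the siStar-PAP positions had fewer G and C than the control positions, the other way from the mean over all exon summits. PRRC2B and MYH9 had 8 coding summits each on siStar-PAP, and ZBTB20 and ARIH1 1 each in control. The nearest summit of the other list was 34686 bp away for MYH9 and 722 to 1407 bp away for the other 3.

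The genes with most summits changed with the list. In control they were CNTNAP2 with 402, DLG2 with 400, RBFOX1 with 379, CTNNA3 with 362 and PCDH15 with 343, genes of 1825 to 2474 kb, most of which encode proteins of neurons or cell junctions. On siStar-PAP these held 144, 116, 214, 125 and 91. The siStar-PAP list was led by CAMTA1, a transcription factor, with 230 against 91 in control, RBFOX1, a splicing factor, with 214, KAZN with 209 against 132, PTPRN2, a phosphatase-like protein of secretory vesicles, with 185 against 66, and CDH4, a cadherin, with 179 against 38. Their GC content was 42.4 to 51.8%, against 34.6 to 42.4% in the control leaders. Relative to genes of like GC content, CAMTA1 was at −0.18, KAZN at −0.49, PTPRN2 at −0.72 and CDH4 at 0.01 on the log2 scale.

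Gene families and complexes were described by 29 lists, each summed so that a summit counts once. Over all genes the gene-body ratio was 1.26 and the exon ratio 2.89. The lists of the expression machinery, of protein folding and turnover, of complex I and of DNA replication had gene-body ratios above 1.26 as point values. The 82 ribosomal protein genes, which encode the cytosolic ribosome, held 77 control and 272 siStar-PAP summits, a ratio of 4.42 (3.42 to 5.76), and 14 and 78 in exons. A gene-body summit was present in 32 of the 82 in control and in 70 on siStar-PAP. Of all 19229 genes, 13607 and 16559 had one. RPL37A held 9 and 25 and RPL39L, a testis paralog, 16 and 4. The 12 subunits of RNA polymerase II held 18 and 84, a ratio of 5.83 (3.48 to 10.3), with 0 and 15 in exons. POLR2A, the largest subunit, had 3 and 23, and POLR2F 2 and 31. The 36 hnRNP and SR splicing factors had a ratio of 2.80 (2.17 to 3.65) and held 10 and 52 exon summits, with 4 and 17 in HNRNPC. The 68 translation factors were at 1.78, with 16 and 97 exon summits. EIF4G3, an initiation scaffold, held 66 and 96, and EIF3E, an eIF3 subunit, 57 and 17. Aminoacyl-tRNA synthetases (20 genes) were at 1.68, proteasome subunits (45) at 1.71, heat shock proteins (76) at 1.87 and complex I (46) at 1.56. DNA replication genes (34) were at 1.43 (1.19 to 1.72) and mitochondrial ribosomal proteins (78) at 1.28 (1.08 to 1.51), and both intervals held 1.26. In gene bodies all of these lists stayed above 1 within GC classes, from 1.11 in the mitochondrial ribosome to 2.57 in RNA polymerase II. All genes of a class are at 1 by construction. The exons of mitochondrial ribosomal proteins were at 0.958 within GC classes.

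Some families of high GC content had ratios above 3 that were smaller within GC classes. Tubulins (23 genes) had a ratio of 3.57, keratins (55) 3.65 and histones (74) 3.13, and within GC classes 1.29, 0.945 and 1.06. Of the 74 histone genes 36 had no gene-body summit in either list, beside 1931 of all 19229 genes, and 0 of the 74 reached 20 summits.

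The HOX genes, which pattern the body axis, had the highest ratio of the lists. Their 39 members held 4 control and 108 siStar-PAP summits, a ratio of 33.8 (12.8 to 126), with 78 on siRBM10, and 1 and 29 in exons. A summit was present in 5 of the 39 in control and in 31 on siStar-PAP, beside 13607 and 16559 of all 19229 genes. All 4 clusters held more siStar-PAP than control summits. The span of the HOXA cluster, chr7:27132612-27239710, held 0 control and 33 siStar-PAP summits, that of HOXB on chromosome 17 held 8 and 53, that of HOXC on chromosome 12 held 3 and 39, and that of HOXD on chromosome 2 held 2 and 27. siRBM10 held 22, 51, 27 and 22. A span also takes in sequence between and beside the HOX genes. The split by cluster was made after the list had been seen. Genes of a cluster lie side by side and some overlap, so they are not separate observations. Their median GC content was 54.4%, and within GC classes the ratio was 3.83, the highest of the 29 lists in that scaling too.

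Housekeeping and tissue-restricted genes were set side by side, as markers of what HEK293 cells are known to transcribe. The 27 housekeeping genes had a median GC content of 48.4% and the 34 tissue-restricted genes 48.0%. Housekeeping genes held 56 control and 235 siStar-PAP summits, a ratio of 5.25 (3.90 to 7.15), and tissue-restricted genes 64 and 104, a ratio of 2.03 (1.47 to 2.82). In exons the counts were 7 and 76 (13.6-fold, 6.28 to 34.9) against 10 and 27 (3.38-fold, 1.58 to 7.81). An exon summit was present in 6 of the 27 housekeeping genes in control and in 26 on siStar-PAP, and in 9 and 14 of the 34 tissue-restricted genes. Of all 19229 genes, 5760 and 10044 had an exon summit. Within GC classes the ratios were 2.29 and 0.892. MYH9 held 1 and 40 gene-body summits and LDHB, a lactate dehydrogenase, 19 and 13. Among the tissue-restricted genes MBP, the myelin basic protein, had 12 and 47 and PTPRC, the leukocyte antigen CD45, 15 and 6. The same counts on siRBM10 were 202 for the housekeeping and 117 for the tissue-restricted genes.

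Olfactory, synaptic and adhesion families had gene-body ratios below 1. The 414 olfactory receptor genes, which are used in the nose, held 438 control and 159 siStar-PAP summits, a ratio of 0.454 (0.376 to 0.545), and 157 and 54 in exons, a ratio of 0.430 (0.310 to 0.589). A gene-body summit was present in 178 of the 414 in control and in 88 on siStar-PAP, with 64 genes in both. Over all 19229 genes these numbers were 13607, 16559 and 12868. OR51B5, with 39 and 12 summits, shares all of them with overlapping genes. Within GC classes the ratio was 0.437, and siRBM10 held 201 summits. The 34 giant adhesion and synaptic genes held 7895 and 3083, a ratio of 0.488 (0.468 to 0.509), and 20 of 34 were at least 2-fold lower and 0 higher, with a median log2 ratio of −1.09 beside 0.18 over all compared genes. CSMD3 was lowest with 200 and 33, and AUTS2 highest with 175 and 157. In their exons 51 and 36 summits were not clear of counting error (0.882, 0.559 to 1.38). Within GC classes the ratio was 0.786. Glutamate and GABA receptors (44 genes) were at 0.684 (0.634 to 0.738), with 13 of 28 compared genes at least 2-fold lower and 7 higher, among them GRM4. The exons of these receptors held 38 and 51 summits, a ratio of 1.68 (1.08 to 2.62). Cadherins and protocadherins (86) were at 0.762, with 23 of 52 compared genes higher and 8 lower. Their median log2 ratio was thus 0.39 while the ratio of the sums was below 1. In counts by gene a summit in overlapping members counts for each, so the 52 may not be separate observations. Within GC classes 1 of the 52 was at least 2-fold higher and 1 lower. Their exons held 41 and 81 summits, a ratio of 2.47 (1.68 to 3.69). Over all compared genes, 31.8% were at least 2-fold higher and 14.1% lower in gene bodies.

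Other membrane and matrix families were mixed. Potassium channels (93 genes) were at 1.04 (0.965 to 1.11). Of 41 compared genes, 13 (31.7%) were at least 2-fold higher and 12 (29.3%) lower, beside 31.8 and 14.1% of all compared genes. Within this list KCNIP3 had 1 and 28 summits and KCNIP4 190 and 45, at GC contents of 53.7 and 37.7%. Sodium and calcium channels (19) were at 1.88, with CACNA1C, a cardiac and neuronal calcium channel, at 42 and 136. Solute carriers (359) were at 1.32, from SLC12A7, a potassium chloride transporter, with 1 and 36 to SLC9C2 with 21 and 2. Collagens (42) were at 1.13, with COL5A1 at 8 and 74 and COL24A1 at 102 and 19. Cytochromes P450 (57) were at 1.22 (1.01 to 1.48). The 503 ZNF genes were at 1.61, with ZNF536 at 41 and 159 and ZNF385D at 178 and 44. Scaled by chromosome they were at 0.811, and within GC classes at 1.25. The other 5 of these families turned below 1 within GC classes, with potassium channels at 0.798, sodium and calcium channels at 0.924, solute carriers at 0.946, collagens at 0.774 and cytochromes P450 at 0.857.

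**Figure D5:**
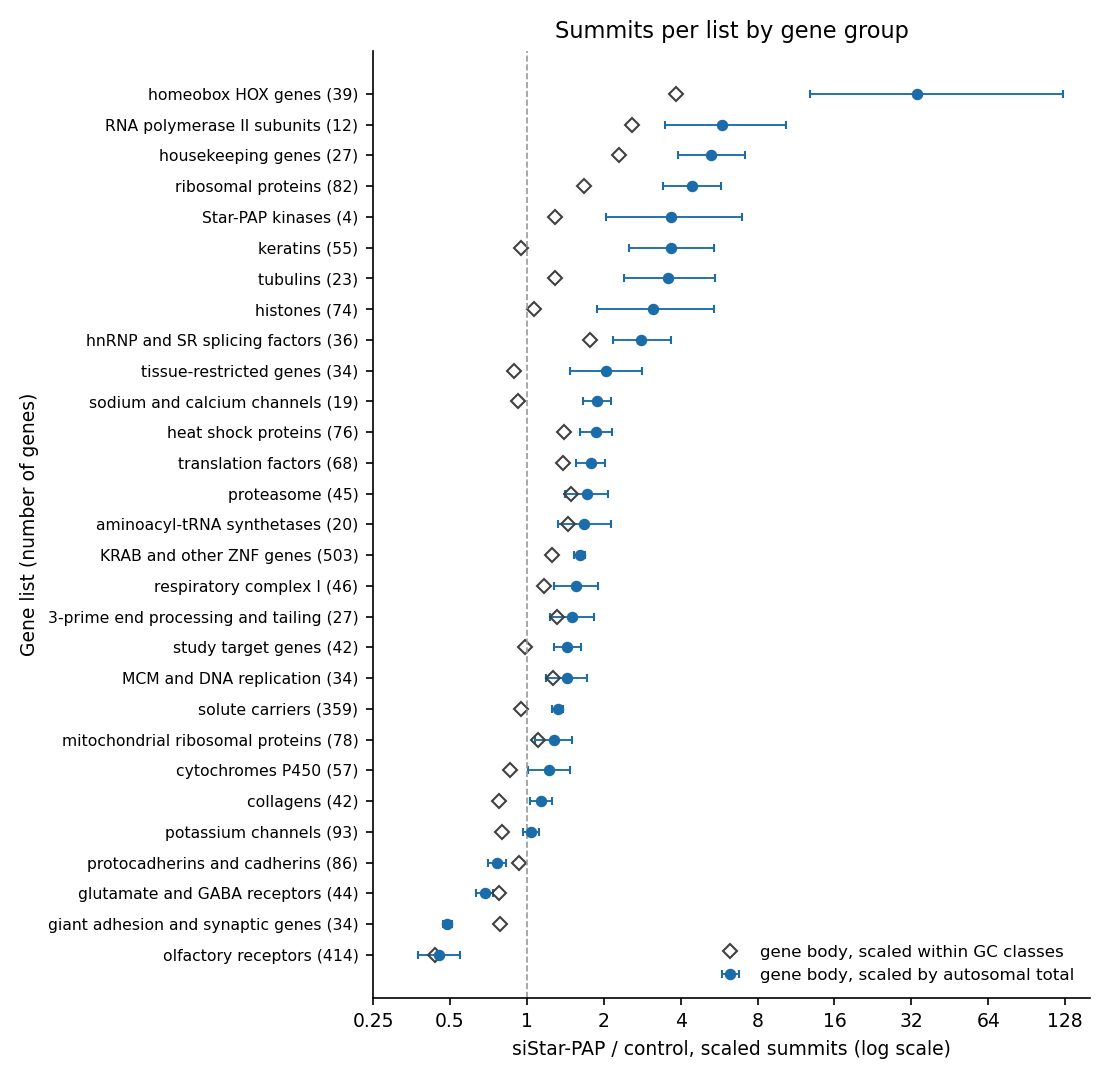
Scaled siStar-PAP over control ratio of gene-body summits (log axis) for 29 gene lists, with the number of genes in brackets, scaled by the autosomal total with 95% intervals of counting error (blue) and scaled within 20 GC classes (open diamonds). Olfactory receptors at 0.454 and giant synaptic genes at 0.488 lie lowest and HOX genes at 33.8 highest, and within GC classes the lists run from 0.437 to 3.83.

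The genes of poly(A) tail formation had, as a sum, a ratio whose interval held that of all genes. The 27 genes of cleavage, polyadenylation and tailing held 192 control and 231 siStar-PAP summits, a ratio of 1.5 (1.24 to 1.83), and 26 and 51 in exons. All 27 had a siStar-PAP summit and 22 a control summit, beside 16559 and 13607 of all 19229 genes. Of 9 compared genes, 2 were at least 2-fold higher and 0 lower, beside 31.8 and 14.1% of all compared genes. SYMPK, the scaffold symplekin, had 5 and 21, WDR33, which reads the poly(A) signal, 21 and 26, and TUT4, a uridylyl transferase, 35 and 29. The lowest of the 9 was TENT2, a cytoplasmic poly(A) polymerase, with 13 and 8, a ratio of 0.769 (0.276 to 2.0) and a log2 ratio that turned to 0.98 within GC classes. The 4 kinases known to act with Star-PAP held 16 and 47 summits, a ratio of 3.67 (2.04 to 6.94), with 5 and 16 in PIP5K1A and 7 and 10 in CSNK1A1. Within GC classes the 2 lists were at 1.31 and 1.29 in gene bodies and at 0.967 and 1.36 in exons.

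Genes followed singly in the study, most of them as possible targets of Star-PAP and RBM10 and at least 1 as a non-target, were not lower on siStar-PAP as a group. Such genes were picked with these same samples in hand, so they are not independent evidence of a direction. The 42 members held 486 control and 560 siStar-PAP summits, a ratio of 1.44 (1.27 to 1.63), and 521 on siRBM10. In exons they held 25 and 39, a ratio of 1.95 (1.15 to 3.36), beside 2.89 over all genes. Of 16 compared genes 4 were at least 2-fold higher and 3 lower, beside 31.8 and 14.1% of all genes. Exon summits were present in 18 of the 42 in control and in 23 on siStar-PAP, with 10 in both lists and 8 in control alone. Over all 19229 genes these numbers were 5760, 10044, 3520 and 2240. COL5A1, a fibrillar collagen, had 8 control and 74 siStar-PAP summits (11.6-fold, 5.57 to 27.8), and CDH1, E-cadherin, had 2 and 14. KCNMA1, a calcium-activated potassium channel, had 53 and 84. HMOX1, heme oxygenase of the oxidative stress response, had 2 and 6, and NQO1, a quinone reductase, 0 and 5. WIF1, a Wnt inhibitor, had 12 and 3, and RRAS2, a small GTPase, 21 and 7. Relative to genes of like GC content, the log2 ratio was 0.24 in COL5A1, 0.82 in CDH1, 0.14 in KCNMA1, −0.98 in HMOX1, 1.08 in NQO1, −0.67 in WIF1 and −0.66 in RRAS2. The group was within GC classes at 0.982 in gene bodies and 0.740 in exons.

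Some genes stood apart from others of like GC content, by a choice made after the values were seen. VMP1, an autophagy protein, held 13 control and 38 siStar-PAP summits, and PDE4DIP, a centrosomal protein, 18 and 58. Their log2 ratios within GC classes were 2.0 and 1.96, and siRBM10 held 29 and 62. KIF26B, a kinesin, held 97 and 37, FAM81A 42 and 11, GALNT17, a glycosyl transferase, 102 and 46, and ATP11A, a lipid flippase, 43 and 50. Their log2 ratios within GC classes were −2.17, −2.01, −1.94 and −1.77, and siRBM10 held 31, 13, 78 and 24. In ATP11A the sign thus depended on the scaling, with 0.53 by the autosomal total. Scaled within chromosomes, the highest genes were TNRC18 (5.14), LINGO1 (4.34), IQSEC1 (3.80, with 12 and 93 summits), VAV2 and GRM4, and KCNT2 (−2.65) was the lowest.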

How the data were processed

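HITS-CLIP of Star-PAP in HEK293 cells was compared between 1 control and 1 siStar-PAP library, with siRBM10 values beside them. The authors used the CLIP Tool Kit to filter reads, cutadapt (1.14) for trimming and BWA (0.7.12) for mapping to hg19, both versions per the labels. MACS2, whose version is not given in the sources used here, then called peaks in each library separately, with IgG as its control. The deposited lists hold 1-bp summits and a score, the −log10 of the authors' MACS2 p-value, which was used only to choose the sequence windows printed. Strand, width, tag numbers and read depth were not used here, so the depth behind a summit is unknown.

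Summits were counted in gene bodies and in exons of protein-coding transcripts of GENCODE release 44 mapped to hg19, and a summit in overlapping genes counts for each. No summit lay beyond the end of its chromosome. Counts were divided by the autosomal total, and log2 ratios had a pseudocount of 1. At least 20 gene-body or 5 exon summits in both lists together were required. Ratio intervals are exact conditional Poisson intervals and shares have Wilson intervals at 95%. Ratios against 0 use a floor of 3 summits and are not lower limits.

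Pseudocount apart, folds in the text are ratios of scaled counts. Named genes were TUT1, the 10 highest and 10 lowest ratios at 50 gene-body or 10 exon summits, the 5 with most summits per list, and in each list of genes the 2 with most summits and the highest and lowest, of which some are printed and a few are not reported here. The chromosome-scaled extremes were added, 5 a side. Genes of 1 list alone, the GC-scaled extremes, further study genes and the HOX clusters were chosen after their values were seen. Members and lists were chosen with earlier results of these data known.

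Alternatives were scaling by summits outside genes, within chromosomes or within 20 GC classes (the last chosen after seeing the data), a pseudocount of 0.5, minimums of 10 and 3 or of 40 and 10, summits in 1 gene only, summits within 500 bp merged, exons of the longest coding transcript, chromosomes 4, 13 and 19 left out, and summits within 500 bp of the other list left out. Counting was tested on simulated data. Intervals came from scipy 1.17.1, tables from pandas 2.3.3, arrays from numpy 2.4.6 and plots from matplotlib 3.10.9, under Python 3.11.15.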

Additional observations from a re-analysis of the deposited data

How the results depend on the processing

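With 1 library per condition no spread between replicates is known and none could be left out, intervals cover counting error alone, and the depth of each list is unknown. No paired analysis was possible because each condition had 1 library and the result comes from no test. The direction of the shortest and longest length classes, of chromosome 19 and of the lowest and highest GC classes was the same under each alternative that gave a value. Scaling within GC classes gives none for the GC classes. The ratio of chromosome 4 turned to 1.26 when each chromosome was scaled by its own summits. The median log2 ratio of genes, 0.18, turned to −0.11 at double the minimum and to −0.0017 within GC classes, and was 0.51 at the lower minimum and 0.53 when scaled by summits outside genes.

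Counts of genes moved as follows, in the order of higher and lower gene bodies and higher and lower exons where named. Within GC classes they were 457, 369, 139 and 257. At double the minimum they were 592, 463, 42 and 0. At the lower minimum 3578 gene bodies were higher, and 1957 and 139 exons higher and lower. Lower gene bodies numbered 374 when scaled by summits outside genes. Lower exons numbered 9 with that scaling, 45 within chromosomes, 49 with a pseudocount of 0.5, 9 with the longest transcript and 41 without chromosomes 4, 13 and 19.

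The siStar-PAP share in gene bodies was 54.7% without summits in several genes, 56.1% with summits merged and 56.8% without summits near the other list. The share in exons was 5.57%, 5.24% with the longest transcript, 5.89% without the 3 chromosomes and 6.42%. Ratios under 10 kb, over 1000 kb, on chromosomes 4 and 19 and in the lowest and highest GC class were 6.21, 0.665, 0.724, 5.70, 0.699 and 10.6 when scaled by summits outside genes, and 6.30, 0.485, 0.535, 6.21, 0.502 and 13.1 without summits near the other list. Within chromosomes, those other than chromosome 4 were 3.46, 0.565, 1.24, 0.614 and 4.58, and within GC classes the first 4 were 1.195, 0.759, 0.723 and 1.20. Without the 3 chromosomes the ratio under 10 kb was 4.49.

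Directions of named genes and lists that were at least 2-fold apart turned under 3 alternatives. Within GC classes keratins were at 0.945 and tissue-restricted genes at 0.892, and log2 ratios were −0.18 in CAMTA1, 0.27 in ZBTB20, −0.72 in PTPRN2, 0.094 in CTNNA3, −0.41 in MLLT6 (−0.39 in its exons), −0.35 in RNF213, −0.32 in SYMPK, −0.98 in HMOX1 and −0.016 in exons of SOGA1. HMOX1 was at −0.18 within chromosomes. Smaller differences turned too. Within GC classes sodium and calcium channels were at 0.924, solute carriers at 0.946, collagens at 0.774, cytochromes P450 at 0.857, potassium channels at 0.798 and the genes followed singly at 0.982, and TUT1, KAZN and ATP11A were among the genes that turned, at −1.17, −0.49 and −1.77. Within chromosomes the ZNF genes were at 0.811. With summits in several genes left out, CFAP91, ZNF670 and OR51B5 were each left without summits and at 0.34 by the pseudocount alone.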
